A study of Mus musculus with 18 samples.

Results

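Lmna guide RNAs were delivered to fibroblasts that carry no Cas9, and 6 of the 18 sequenced libraries of the series are described here. They set guides against Lmna beside a guide without a match, all without the nuclease. Every library of the series had received a guide, so the effect of guide delivery itself was not measured. The cells were primary fibroblasts from tail tips of mice aged 2 months, with the genotype Pro/+; +/+, that is, with a single Pro allele of Lmna and without the Cas9 transgene. The libraries were chosen by their titles: 4 had received a guide against Lmna (gLmna-1 or gLmna-2) and 2 had received gMock, a guide that matches nothing in the genome. Cells of each of 2 mice received all 3 treatments, so every difference was taken within a mouse. The mice are called mouse 1 and mouse 2 here, and n is 2 mice for each guide. The name of mouse 2 joins a pair of animal numbers, and the labels do not say whether its cells were pooled. The titles of mouse 2 also carry a further library number that those of mouse 1 lack, but the column headings give such a number for the libraries of both mice. What the number marks is not stated, so it cannot be told apart from the mouse. The other 12 libraries came from Pro/Pro;Cas9/+ and +/+;Cas9/+ mice, 6 each, treated in the same way. All cells, gMock included, had been spun with a lentivirus carrying the guide and an mCherry reporter in 4 µg/ml polybrene and were harvested at passage 5. More than 80% of the cells of each culture showed mCherry, and no sorting or selection followed.

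A guide RNA directs the Cas9 nuclease to a matching DNA sequence, and without the nuclease no cut is made there. Lmna encodes lamins A and C, filament proteins that line the inside of the nuclear envelope. The Pro allele stands for the mutation of Hutchinson-Gilford progeria syndrome, in which a shortened lamin A called progerin remains attached to the nuclear membrane and tissues age early.

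Expression is given as FPKM, reads scaled to transcript length and library depth, with one transcript kept per gene. The recovered depth was 25383150 to 39373800 reads in these 6 libraries, and gMock was the deepest library of both mice. The label of fibroblasts was checked against markers. All 14 fibroblast markers were measured, with Col1a1 at 2128 to 3162 FPKM and Vim at 2614 to 3959 FPKM. The endothelial marker Pecam1 stayed at or below 0.0989 FPKM, the keratinocyte marker Krt14 was listed at 0 in all 6 libraries, and the muscle factor Myod1 stayed at or below 0.0341 FPKM. Some genes of these marker lists were measured, with 3 of 9 keratinocyte markers tested (Dsp highest, at 2.06 to 4.46 FPKM), 2 of 9 skeletal muscle markers (Acta1 at 6.42 to 11.4 FPKM) and 0 of 7 endothelial ones. Of 10 pigment and Schwann cell markers 7 were tested, with Ngfr at 1.44 to 6.95 FPKM. Of 7 adipocyte markers 5 were tested, with Fabp4 at 32.5 to 53.3 FPKM, while Adipoq stayed at or below 0.0208 FPKM and Plin1 at or below 0.0194 FPKM. Macrophage markers were present: their summed level was 349 (gMock), 321 (gLmna-1) and 606 FPKM (gLmna-2) in mouse 1, and 75.4, 124 and 154 FPKM in mouse 2. The gLmna-2 library had the highest sum in each mouse.

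The gene that the guides target was examined first. Lmna stood at 236 FPKM with gMock, 291 with gLmna-1 and 196 with gLmna-2 in mouse 1, and at 243, 242 and 222 FPKM in the same order in mouse 2. Both guide libraries of mouse 1 lay outside the gMock values, one above and one below, while of those of mouse 2 gLmna-1 lay within them and gLmna-2 below. The mean was 240 ± 4.54 FPKM for gMock (SD, n = 2), 266 ± 34.5 for gLmna-1 and 209 ± 18.4 for gLmna-2. On the log2(FPKM + 1) scale Lmna differed from gMock by 0.15 (SE 0.17) with gLmna-1 and by -0.20 (SE 0.17) with gLmna-2, with limma adjusted p-values of 1 and 0.996. The mean over both guides was -0.03 (SE 0.15), and it turned to 0.01 when libraries were centred on their medians. These values come from a short Lmna transcript (NM_019390), which had the highest level and lacks the first exon of the lamin A transcript. A longer transcript that ends at the same base (NM_001111102) measured 218, 271 and 183 FPKM in mouse 1 and 225, 225 and 208 FPKM in mouse 2. The lamin A transcript (NM_001002011) measured 180, 216 and 153 FPKM in mouse 1 and 184, 186 and 171 FPKM in mouse 2, in the same order of libraries.

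The deposited table lists each part of a transcript apart, so the 3′ end that only lamin A and progerin messages hold can be set against the shared exons 4 to 9. In mm10, Lmna is transcribed from the minus strand on chromosome 3. Its last exon, exon 12, holds a part of the 3′ UTR from 88481148 to 88482073, and exon 11 spans 88482346 to 88482612. The exon 12 part measured 121, 129 and 107 FPKM in mouse 1 and 120, 125 and 113 FPKM in mouse 2, for gMock, gLmna-1 and gLmna-2. The 6 values lay close together, with gLmna-2 lowest and gLmna-1 highest in each mouse. Divided by the mean of exons 4 to 9, the exon 12 part gave ratios of 0.465, 0.407 and 0.496 in mouse 1 and 0.450, 0.474 and 0.464 in mouse 2. The guide libraries thus differed from their gMock library by -12.6% (gLmna-1) and 6.50% (gLmna-2) in mouse 1 and by 5.19% and 2.96% in mouse 2, and 3 of the 4 ratios were above gMock. The low ratio of gLmna-1 in mouse 1 went with a denominator 21.4% above gMock, whereas its exon 12 part itself was above gMock. In the cells with Cas9 the same ratio was lower than gMock in all 8 guide libraries, by -48.9% to -32.1% in Pro/Pro;Cas9/+ and by -34.1% to -20.5% in +/+;Cas9/+. No test was made of these ratios, because their pattern with Cas9 was already known when they were chosen.

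**Figure D1:**
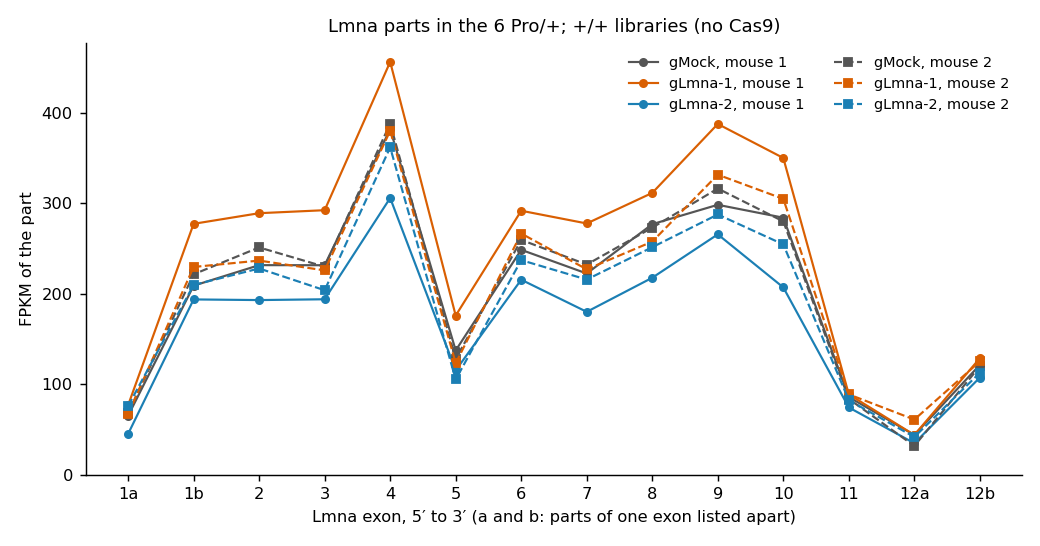
FPKM of each part of the lamin A transcript of Lmna, from the 5′ to the 3′ end, in the 6 Pro/+; +/+ libraries (colour, treatment; circles with solid lines, mouse 1; squares with dashed lines, mouse 2). The lines follow the same profile, and at the last part they lie between 107 and 129 FPKM.

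Exon 11 and the end that only lamin C holds were compared in the same way. Exon 11, which contains the progeria mutation site and is cut short in progerin messages, measured 85.8, 88.8 and 74.3 FPKM in mouse 1 and 83.8, 88.8 and 82.4 FPKM in mouse 2. Its ratio to exon 12 was 0.707, 0.690 and 0.692 in mouse 1 and 0.699, 0.709 and 0.731 in mouse 2. Guide libraries lay on both sides of gMock for this ratio, within -2.44% to 4.57%. The lamin C end had ratios to exons 4 to 9 of 0.406, 0.463 and 0.448 in mouse 1 and 0.403, 0.423 and 0.430 in mouse 2. All 4 guide libraries were above both gMock libraries here, by 5.07% to 14.1%, on at least 224 reads in each library. These are descriptions of 6 libraries, and the reads behind exon 11 numbered 502 to 899.

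Across the genome, no gene passed the test for both guides against gMock. Of 12599 genes tested with limma, 0 (0%) had an adjusted p under 0.05, and the smallest adjusted p was 0.996. At an unadjusted p under 0.05 there were 397 genes (3.15%), 163 higher (1.29%) and 234 lower (1.86%). The spread behind these values came from all 18 libraries. In a limma fit of the Pro/+; +/+ libraries alone, 778 genes had an unadjusted p under 0.05 for both guides. That fit also called 0, with a smallest adjusted p of 0.217 and 2 residual degrees of freedom. It gave 387 genes under an unadjusted p of 0.05 for gLmna-1, 1093 for gLmna-2 and 655 between the guides. A second tool, limma voom on recovered reads, also called 0. The share of genes above 0 was 34.5%, with a median log2 difference of -0.04, so counts of higher and lower members of a list are to be read against that background. In such bulk libraries fewer cells of a type and less RNA per cell cannot be told apart.

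The 10 genes with the smallest p among those that met set conditions are described here as not past the test. The conditions were a mean of at least 2 FPKM, the same direction in both mice, and no gene models or sex-linked markers. Matn2, which encodes matrilin-2, a protein of extracellular filaments, measured 9.87 FPKM with gMock, 15.8 with gLmna-1 and 14.9 with gLmna-2 in mouse 1, and 19.1, 33.7 and 46.2 FPKM in mouse 2. Both guides were above gMock in each mouse, and the ranges overlapped only because mouse 2 had the higher level throughout. The log2 difference was 0.80 (SE 0.15), with a limma adjusted p of 0.996. Tmem119, a membrane protein of bone-forming and other mesenchymal cells, measured 29.7, 39.2 and 46.7 FPKM in mouse 1 and 44.4, 52.0 and 63.2 FPKM in mouse 2. It followed the order gMock, gLmna-1, gLmna-2 in each mouse, with a log2 difference of 0.44 (SE 0.08). The same order held for Adam33, a membrane metalloproteinase of mesenchymal cells, at 6.36, 6.91 and 8.38 FPKM and at 11.6, 14.9 and 17.7 FPKM. Thbs4, which encodes the matrix protein thrombospondin-4, stood at 91.4, 120 and 131 FPKM in mouse 1 and at 163, 218 and 333 FPKM in mouse 2. Aspn, a small proteoglycan of the matrix, stood at 4.59, 7.57 and 7.56 FPKM and at 10.4, 16.7 and 23.04 FPKM. Thbs4 differed by 0.59 (SE 0.15) and Aspn by 0.73 (SE 0.17) on the log2 scale, and both were above gMock in all 4 guide libraries.

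The remaining genes of this group were of lower level or smaller difference. Rgl1, a relative of exchange factors for Ral proteins, measured 16.9, 19.6 and 23.05 FPKM in mouse 1 and 16.9, 18.2 and 21.1 FPKM in mouse 2, with a log2 difference of 0.26 (SE 0.06). Its 4 guide values lay above both gMock values with no overlap. Enox1, a surface oxidase, measured 1.44, 2.52 and 2.31 FPKM and 3.21, 4.57 and 5.56 FPKM. Bag2, a cochaperone of Hsp70, was lower with the guides: it measured 28.0, 22.3 and 21.5 FPKM in mouse 1 and 20.9, 16.4 and 12.5 FPKM in mouse 2. Gzmb, the protease granzyme B, was also lower, at 5.91, 4.32 and 3.38 FPKM in mouse 1 and 1.65, 1.07 and 0.536 FPKM in mouse 2. The log2 differences were 0.50 (Enox1), -0.43 (Bag2) and -0.54 (Gzmb). The microRNA gene Mir7025, at a log2 difference of 1.15, rested on only 4 to 15 reads in a library.

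Taken singly, neither guide gave a gene past the test. For gLmna-1, limma called 0 genes (0%) at an adjusted p under 0.05, and 173 (1.37%) at an unadjusted p under 0.05. Of these 173, 53 were higher (0.421%) and 120 lower (0.952%). Of the genes that met the conditions given above, Matn2 had the smallest p, at a log2 difference of 0.71 (SE 0.17). Lims2, an adaptor protein of cell adhesions, measured 17.8 FPKM with gMock against 9.66 with gLmna-1 in mouse 1, and 6.04 against 4.31 FPKM in mouse 2. Rusc2 measured 33.9 against 27.3 FPKM in mouse 1 and 22.9 against 18.5 FPKM in mouse 2. The log2 differences were -0.61 (SE 0.16) for Lims2 and -0.30 (SE 0.07) for Rusc2, and the same direction in both mice was a condition for naming them. Lipt1, which transfers lipoate to mitochondrial enzymes, differed by -0.55, and Nmnat1, which makes NAD in the nucleus, by -0.53, while gLmna-2 left the latter at 4.66 FPKM beside 5.07 with gMock in mouse 1.

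For gLmna-2, 0 genes (0%) passed and 566 (4.49%) were under an unadjusted p of 0.05 by limma, 233 higher (1.85%) and 333 lower (2.64%). Tmem119 differed by 0.57 (SE 0.09), Adam33 by 0.46 (SE 0.08), Rgl1 by 0.37 (SE 0.07) and Matn2 by 0.89 (SE 0.17). All 4 belong to the genes named above for both guides. Among the lower ones, Myadm, a membrane protein, measured 199 FPKM with gMock against 165 with gLmna-2 in mouse 1 and 225 against 173 FPKM in mouse 2. Peg10, an imprinted gene derived from a retrotransposon, measured 9.23 against 5.79 FPKM and 7.91 against 5.74 FPKM. Their log2 differences were -0.32 and -0.50, and the same direction in both mice was a condition for naming them. The guides compared directly (gLmna-2 minus gLmna-1) gave 0 genes (0%) past the test and 266 (2.11%) at an unadjusted p under 0.05 by limma, 118 higher (0.937%) and 148 lower (1.17%). Nsdhl, of the cholesterol list described further on, was among the 10 with the smallest p that met the same conditions. Lbp, which binds bacterial lipopolysaccharide, differed by 0.63 (SE 0.13): it stood at 5.49 FPKM with gLmna-1 and 9.58 with gLmna-2 in mouse 1, and at 5.74 and 8.89 FPKM in mouse 2. With gMock it stood at 9.01 and 6.81 FPKM, so in mouse 1 gLmna-1 was the library apart, and in mouse 2 the guides lay on either side of gMock.

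Gene lists were described by how many members lay above 0 and by their medians, beside the same values over all genes. Over all genes the sign was the same in both mice for 60.9% with both guides and 63.6% with gLmna-2. No member of any of the 18 gene lists or 8 marker lists passed the test for both guides, for either guide or for the difference between them (limma, adjusted p under 0.05).

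**Figure D2:**
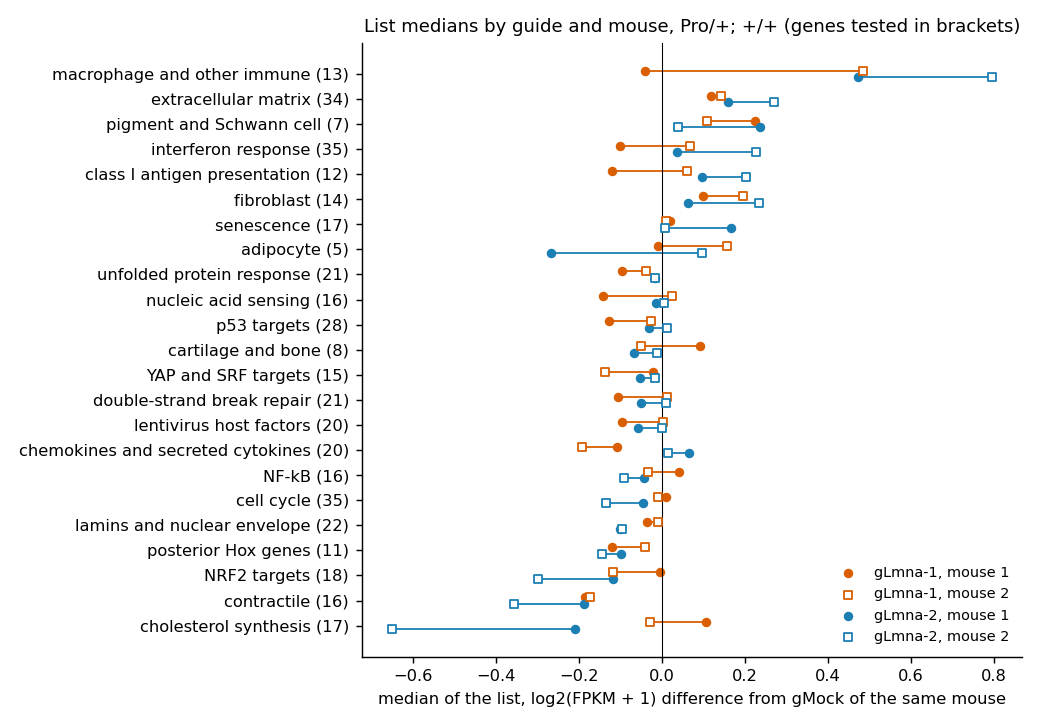
Median log2(FPKM + 1) difference from gMock of the same mouse for each list with at least 5 tested genes, in Pro/+; +/+ cells (orange, gLmna-1; blue, gLmna-2; filled circles, mouse 1; open squares, mouse 2; a line joins the mice). The cholesterol synthesis list lies at -0.21 and -0.65 with gLmna-2, and extracellular matrix lies above 0 and contractile genes below 0 at all 4 points.

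Extracellular matrix genes, which code for collagens, fibronectin, fibrillin and their partners, were mostly higher with the guides. Of 34 tested, 31 lay above 0, against 34.5% of all genes, and the median was 0.18 against -0.04 over all genes. The medians were 0.13 in mouse 1 and 0.19 in mouse 2, and 22 members were above gMock in both mice. At an unadjusted p under 0.05 (limma) 7 were higher and 0 lower, against 1.29% and 1.86% of all genes. Fbn1, the microfibril protein fibrillin-1, measured 63.8, 87.3 and 85.2 FPKM in mouse 1 and 152, 171 and 196 FPKM in mouse 2. Its guide libraries were all above their own gMock library, with a log2 difference of 0.35 (SE 0.09). Postn, the matrix protein periostin, measured 34.3, 46.3 and 50.8 FPKM in mouse 1 and 102, 213 and 322 FPKM in mouse 2. It differed by 0.92 (SE 0.34), and the difference in mouse 2 (1.35) was larger than in mouse 1 (0.49). Dpt, the matrix protein dermatopontin, measured 17.0, 20.8 and 27.6 FPKM and 27.5, 50.98 and 85.5 FPKM, again highest with gLmna-2 in each mouse. Fn1, fibronectin, measured 2248, 2691 and 2810 FPKM and 1891, 2036 and 2694 FPKM. Col14a1 was low throughout, from 0.389 to 2.24 FPKM, with a log2 difference of 0.30 (SE 0.10). By guide the medians were 0.15 for gLmna-1 and 0.19 for gLmna-2. Macrophage markers were above 0 in 13 of 13 tested for both guides, with a median of 0.40, and their part in the matrix differences was not tested.

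Contractile genes, which code for smooth muscle actin, its tropomyosins and other proteins of stress fibres, lay on the other side. Only 2 of 16 were above 0, the median was -0.21, and 14 were below gMock in both mice. By limma, 6 were lower and 0 higher at an unadjusted p under 0.05, against 1.86% and 1.29% of all genes. Acta2, smooth muscle actin, measured 1288, 945 and 953 FPKM in mouse 1 and 745, 602 and 440 FPKM in mouse 2. Tagln, the actin-binding protein transgelin, measured 782, 613 and 561 FPKM and 528, 443 and 315 FPKM. For both, each guide library was below its own gMock library, but the gMock value of mouse 2 was under all values of mouse 1. The log2 difference of Tagln was -0.46 (SE 0.16), that of Tpm2 -0.39 (SE 0.15) and that of Tpm4 -0.21 (SE 0.07). Tpm4, a tropomyosin, measured 363, 332 and 319 FPKM and 344, 304 and 269 FPKM, and its 4 guide values lay below both gMock values. Cnn1, calponin, measured 104, 71.4 and 84.0 FPKM and 55.0, 42.6 and 25.4 FPKM. The medians of this list were -0.18 for gLmna-1 and -0.26 for gLmna-2, and the part of the higher macrophage markers in them was not tested.

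Cholesterol synthesis genes were lower with gLmna-2 than with gMock or gLmna-1, though none passed the test. These genes code for the enzymes from acetyl units to cholesterol and for regulators of sterol supply, and the SREBP-2 factor, product of Srebf2, switches them on together when sterols are scarce. With gLmna-2, 0 of 17 lay above 0, against 35.4% of all genes, the median was -0.40, and 16 were below gMock in both mice. By limma, 10 of the 17 were lower at an unadjusted p under 0.05, against 2.64% of all genes. With gLmna-1, 11 of 17 lay above 0, against 37.3% of all genes, with a median of 0.04. For gLmna-2 minus gLmna-1 the median was -0.48 beside 0.00 over all genes, and 0 of 17 lay above 0 (50.2% of all genes did). Between the guides 11 were lower at an unadjusted p under 0.05 by limma, against 1.17% of all genes. The medians with gLmna-2 were -0.21 in mouse 1 and -0.65 in mouse 2.

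**Figure D3:**
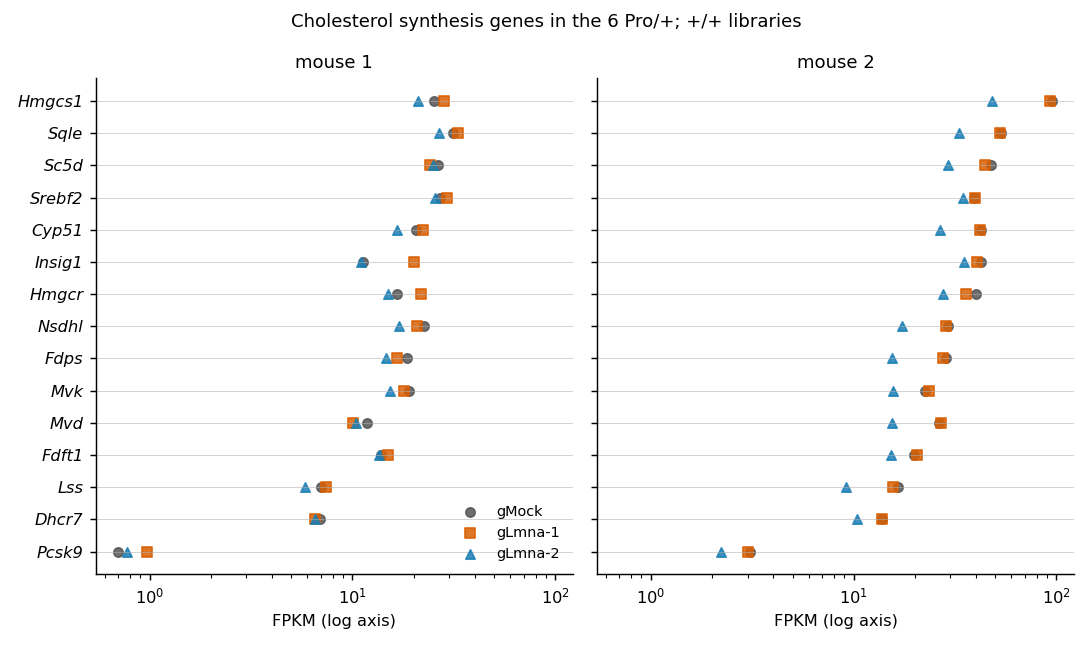
FPKM of 15 of the tested cholesterol synthesis genes in mouse 1 (left) and mouse 2 (right), on a log axis (grey circles, gMock; orange squares, gLmna-1; blue triangles, gLmna-2). In mouse 2 the gLmna-2 point is the lowest for every gene shown.

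Hmgcs1, the synthase that makes HMG-CoA, measured 25.3, 28.3 and 21.0 FPKM in mouse 1 and 95.1, 92.5 and 48.1 FPKM in mouse 2. The level with gMock differed more between the mice than gLmna-2 differed from it in either. Its promoter was the one in this list that holds a known sterol regulatory element by its letters, and it is shown for that reason. The motif searched was TCACCCCAC, the letters of a sterol regulatory element that SREBP binds, on both strands and with no other motif searched, in 250 bases before to 50 after each RefSeq start. It occurred in 181 of 32851 promoters (0.551%). Promoters of 11 of the 18 listed genes were found in RefSeq, and the motif was in 1 of them. The Hmgcs1 promoter (GRCm38.p6, chr13:119690101-119690400, plus strand, motif in capitals, starting 137 bases before the transcript start) reads as follows.
Hmgcs1: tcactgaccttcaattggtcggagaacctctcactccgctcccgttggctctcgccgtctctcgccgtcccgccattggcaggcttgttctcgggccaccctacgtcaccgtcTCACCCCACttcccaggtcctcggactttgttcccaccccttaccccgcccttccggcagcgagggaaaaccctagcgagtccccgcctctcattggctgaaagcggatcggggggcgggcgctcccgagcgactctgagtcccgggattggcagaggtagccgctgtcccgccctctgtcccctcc
A match of letters is a description of the window only, and so is the lack of one in the other 10 genes.

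The 4 further members named here were also lowest with gLmna-2 in each mouse. Nsdhl, a sterol dehydrogenase, measured 22.6, 20.8 and 16.9 FPKM and 29.3, 28.7 and 17.2 FPKM. Its log2 difference from gMock with gLmna-2 was -0.57 (SE 0.13). Lss, which closes the sterol rings, measured 6.98, 7.37 and 5.82 FPKM and 16.5, 15.7 and 9.22 FPKM. Mvk, mevalonate kinase, measured 19.1, 17.9 and 15.3 FPKM and 22.6, 23.4 and 15.7 FPKM. Srebf2 itself stood at 27.1, 29.3 and 25.4 FPKM in mouse 1 and at 39.2, 39.8 and 34.5 FPKM in mouse 2. Macrophage markers were at their highest in the same gLmna-2 libraries, and their part in these differences was not tested.

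Macrophage and other immune markers were above 0 in 13 of 13 tested genes for both guides, with a median of 0.40, and at an unadjusted p under 0.05 (limma) the count was 0. The list median was 0.61 for gLmna-2 and 0.21 for gLmna-1. Lyz2, lysozyme, measured 254, 228 and 460 FPKM in mouse 1 and 51.5, 84.2 and 104 FPKM in mouse 2. Tyrobp, a signalling adaptor of myeloid cells, measured 23.4, 22.8 and 36.01 FPKM and 3.82, 7.32 and 9.15 FPKM. Adgre1, which encodes the macrophage antigen F4/80, measured 5.61, 5.98 and 9.88 FPKM and 0.995, 1.94 and 2.57 FPKM. In mouse 1 gLmna-1 stayed near gMock for these 3 genes and gLmna-2 stood above it, while in mouse 2 both guides were above, and mouse 1 had the higher level throughout. C1qa, a complement subunit made by macrophages, was above gMock by more than 2-fold with gLmna-2 in both mice, at 30.0 against 13.8 FPKM and 10.2 against 4.47 FPKM. It was named after its values were seen. None of the 14 listed markers was at 0 in any of the 6 libraries, but Cd74 stayed at or below 0.758 FPKM and was not tested.

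Interferon response genes, which cells switch on when they sense viral nucleic acid, did not pass the test for guides against gMock. The gMock cells had received lentivirus too, so a response to virus shared by all cells cannot show in this difference. For both guides, 29 of 35 lay above 0, with a median of 0.08, and the median was -0.03 in mouse 1 and 0.17 in mouse 2. No member was under an unadjusted p of 0.05 for both guides or for either one (limma). With gLmna-2 the median was 0.15 and 32 of 35 lay above 0. With limma voom these medians were 0.14 for both guides and 0.29 for gLmna-2. With gLmna-1 it was -0.02 with 14 of 35 above 0, and it turned to 0.03 under median centring and 0.01 under quantile normalization. Isg15, a ubiquitin-like protein that interferon induces, measured 5.27, 6.51 and 7.39 FPKM in mouse 1 and 16.8, 20.3 and 27.4 FPKM in mouse 2, for a log2 difference of 0.40 (SE 0.38). Bst2, tetherin, which holds budding virus at the cell surface, measured 30.6, 22.7 and 33.7 FPKM and 37.1, 40.0 and 46.98 FPKM. Isg15 was above gMock in all 4 guide libraries, and Bst2 in 3 of 4. The macrophage markers moved with these genes, both lists being highest with gLmna-2 in each mouse, and their part was not tested. Class I antigen presentation genes gave 12 of 12 above 0 with gLmna-2 and a median of 0.15, and 4 of 12 with gLmna-1 and a median of -0.03. Of these, Tap2, a peptide transporter subunit, differed by 0.20 (SE 0.09) with gLmna-2. It was the only member under an unadjusted p of 0.05 (limma), where 4.49% of all genes were.

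The genes that answer DNA cutting were measured as well. p53 targets had 11 of 28 above 0 and a median of -0.04 for both guides, the same as over all genes. Cdkn1a, the p21 inhibitor of cell division, measured 301, 273 and 291 FPKM in mouse 1 and 237, 221 and 223 FPKM in mouse 2. Mdm2, which marks p53 for destruction, measured 76.5, 75.9 and 79.0 FPKM and 49.6, 47.4 and 47.5 FPKM. For both genes all treatments of a mouse lay nearer each other than the mice did. Tnfrsf10b, a death receptor, was the only p53 target under an unadjusted p of 0.05 by limma, where 3.15% of all genes were. Its log2 difference was -0.18 (SE 0.06). Double-strand break repair genes had 5 of 21 above 0 and a median of -0.05. Cell cycle genes had 15 of 35 above 0 and a median of -0.04, with Mki67, a marker of dividing cells, at 3.64, 4.03 and 3.74 FPKM and at 4.49, 4.80 and 4.18 FPKM.

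Of genes that bear on lentivirus entry and sensing, 8 of 20 host factors lay above 0, with a median of -0.05. Here too a response shared with the gMock cells cannot show. Lrp1, a large endocytic receptor, measured 116, 125 and 148 FPKM in mouse 1 and 107, 111 and 136 FPKM in mouse 2, with a log2 difference of 0.34 (SE 0.09) for gLmna-2. Samhd1, which depletes the nucleotides that reverse transcription needs, measured 21.8, 20.5 and 18.4 FPKM and 15.3, 13.6 and 12.8 FPKM. Lrp1 was thus highest and Samhd1 lowest with gLmna-2 in each mouse. Nucleic acid sensing genes had 5 of 16 above 0 and a median of -0.03, which turned to 0.01 under median centring. Lamins and nuclear envelope genes had 5 of 22 above 0 with a median of -0.07. Among senescence genes (9 of 17 above 0, median 0.00), Mmp13, a collagenase, measured 372, 353 and 526 FPKM and 140, 204 and 305 FPKM. Igfbp3, which binds insulin-like growth factors, measured 63.2, 83.5 and 99.0 FPKM and 80.3, 112 and 188 FPKM. The log2 differences with gLmna-2 were 0.81 (SE 0.19) and 0.93 (SE 0.29), both in the same direction in each mouse. With gLmna-2, 2 members of the list were higher and 2 lower at an unadjusted p under 0.05 by limma, against 1.85% and 2.64% of all genes. Among the lower ones Timp1, an inhibitor of metalloproteinases, differed by -0.40 (SE 0.16). NRF2 targets had 3 of 18 above 0 (median -0.10), unfolded protein response genes 5 of 21 (median -0.05), and chemokines and secreted cytokines 9 of 20 (median -0.07). NF-kB genes had 8 of 16 above 0 (median 0.00) and YAP and SRF targets 3 of 15 (median -0.07).

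Most of the variation among the 6 libraries lay between the mice. Of the sum of squares on the log2 scale, pooled over 12599 genes, 55.4% went with the mouse, 22.8% with the treatment and 21.8% with the rest. Treatment and rest have equal degrees of freedom in this layout, so the treatment share was hardly set apart from the rest. The most variable genes weigh most in such a sum, and the mice also differed in sex, as described at the end. In the Cas9 genotypes the mouse took 32.7% in each, and treatment took 40.7% in Pro/Pro;Cas9/+ and 43.8% in +/+;Cas9/+. The rest took 26.5% and 23.4% there, in the same order. The differences of a guide from gMock in mouse 1 and in mouse 2 share no library, and over genes they correlated at r = -0.02 for gLmna-1 and r = 0.35 for gLmna-2. These are correlations across genes, which are not independent, and no p is given. The SD of the gLmna-1 differences was 0.29 in mouse 1 and 0.16 in mouse 2. For gLmna-2 it was 0.18 in mouse 1 and 0.26 in mouse 2.

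**Figure D4:**
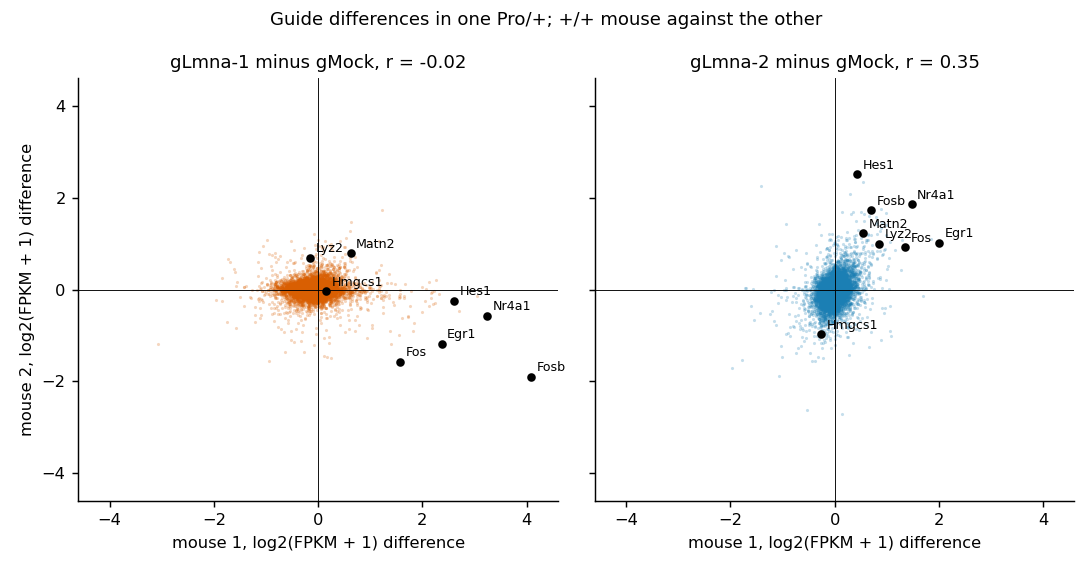
Difference of gLmna-1 (left, orange) and gLmna-2 (right, blue) from gMock for 12599 genes, with mouse 1 on the horizontal and mouse 2 on the vertical axis, both in log2(FPKM + 1). The left cloud has r = -0.02, with Egr1, Fos, Fosb, Nr4a1 and Hes1 to the right of and below 0, and the right cloud has r = 0.35, with the same genes above 0 in both mice.

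Large differences of single libraries were seen in immediate-early genes, which code for transcription factors and regulators that cells switch on within minutes of a stimulus. They were picked after their values were seen, as genes at least 1 apart on the log2(FPKM + 1) scale in both mice but in opposite directions. Fosb measured 5.73 FPKM with gMock, 113 with gLmna-1 and 9.91 with gLmna-2 in mouse 1, and 9.94, 1.94 and 35.2 FPKM in mouse 2. Hes1, a target of Notch signalling, measured 25.9, 163 and 35.3 FPKM and 20.8, 17.4 and 123 FPKM. Nr4a1, an orphan nuclear receptor, measured 7.45, 79.1 and 22.5 FPKM and 15.6, 10.2 and 59.5 FPKM. The high library was that of gLmna-1 in mouse 1 and that of gLmna-2 in mouse 2. For gLmna-2 minus gLmna-1, 22 genes were at least 1 apart on that scale in opposite directions in the 2 mice and 0 in the same direction. Of the 22, 5 were small RNAs with at most 10 reads. Of the other 17, 16 were highest in the same 2 libraries, gLmna-1 of mouse 1 and gLmna-2 of mouse 2, and in all 16 both of these were above the other 4 libraries. They included Atf3, Klf4, Id1, Per1, Trib1 and Nfkbia, the inhibitor of NF-kB. Id1, an inhibitor of differentiation factors, measured 43.4, 175 and 35.2 FPKM and 22.8, 16.0 and 63.3 FPKM. For Egr1 and Fos 3 libraries stood high: Egr1 measured 32.4, 172 and 133 FPKM in mouse 1 and 68.1, 29.6 and 139 FPKM in mouse 2, and Fos 39.3, 119 and 102 FPKM and 64.2, 20.9 and 122 FPKM. Ier5l went the other way.

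Genes more than 2-fold from gMock in the same direction in both mice were few. There were 3 for gLmna-1, all small RNAs (Mir7025, Snord12 and Snord98, at most 22 reads in a library). There were 10 for gLmna-2, of which C1qa, Egr1, Egr2 and Nr4a1 were the protein-coding ones and the other 6 were small RNAs.

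The guide differences were then compared with those in cells that have Cas9, where the Lmna genotype differs along with Cas9 so that these cannot be told apart. Both comparisons below use the same Pro/+; +/+ libraries. The guide difference in Pro/Pro;Cas9/+ minus that in Pro/+; +/+ gave 0 genes (0%) past the limma test, and 523 (4.15%) at an unadjusted p under 0.05. In Pro/Pro;Cas9/+ cells alone, 10 genes (0.0794%) were higher with the guides by limma. That count was 0 without the mouse block, 1 with no filter on low values, and 1 or 2 with any one Pro/+; +/+ library left out. In Pro/+; +/+ cells all 10 also lay above 0, where 34.5% of all genes did, but Frzb and Sfrp1 were above 0 in only 1 mouse each. Adam33 differed by 1.10 with Cas9 and by 0.34 without, and the difference between these was 0.76 (SE 0.10, limma adjusted p = 0.477). Tmem119 differed by 0.64 with Cas9 and by 0.44 without, a difference of 0.21 (SE 0.12). Sfrp1, a secreted inhibitor of Wnt signalling, differed by 1.02 with and 0.07 without Cas9, and Frzb, of the same family, by 1.15 and 0.23. These genes were chosen for their values with Cas9, so the sizes are a description. For Lmna the guide difference in Pro/Pro;Cas9/+ minus that in Pro/+; +/+ was -0.22 (SE 0.21).

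In +/+;Cas9/+ the guide difference was lower than in Pro/+; +/+ for 37 genes (0.294%) and higher for 0 (0%) at an adjusted p under 0.05 by limma. Values below are +/+;Cas9/+ minus Pro/+; +/+. Of the 35 interferon response genes tested, 15 were among the 37, and the median over that list was -1.76 beside 0.02 over all genes. Isg15 had the largest difference, -3.75 (SE 0.54, limma adjusted p = 0.0439), and Bst2 differed by -2.35 (SE 0.30, limma adjusted p = 0.0416). The levels show where this lay. Isg15 measured 189, 12.9 and 25.5 FPKM in the first +/+;Cas9/+ mouse and 200.8, 26.3 and 12.4 FPKM in the second, so gMock alone was high there, and in Pro/+; +/+ cells it stayed between 5.27 and 27.4 FPKM. The gMock libraries of Pro/+; +/+ showed no such level. All 37 calls were lost when any one of the 6 Pro/+; +/+ libraries was left out, and 0 genes were called with a pseudocount of 0.1 FPKM or a filter of 5 FPKM, against 66 in a fit of these genotypes only. Cholesterol synthesis genes lay above 0 in 17 of 17 in this comparison (54.5% of all genes did), with a median of 0.57 and 0 past the test.

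**Figure D5:**
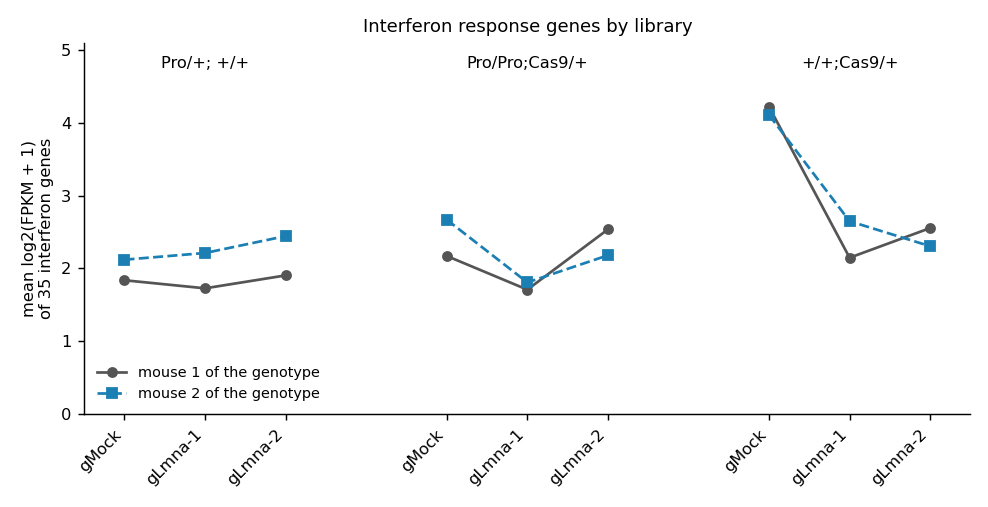
Mean log2(FPKM + 1) of 35 interferon response genes in each of the 18 libraries, by genotype and treatment (grey circles, first mouse of a genotype; blue squares, second mouse). The 6 Pro/+; +/+ libraries lie between 1.73 and 2.44, and the gMock libraries of +/+;Cas9/+ at 4.22 and 4.11.

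The difference between the guides was compared in the same way. The value of gLmna-2 minus gLmna-1 in Pro/Pro;Cas9/+ minus that in Pro/+; +/+ was above 0 for 210 genes (1.67%) and below 0 for 90 (0.714%) that passed the limma test at an adjusted p under 0.05. Under median centring the split was 95 higher and 91 lower. Mest, an imprinted gene of mesenchymal cells, had a difference of -3.66 (SE 0.57, limma adjusted p = 0.0245): in Pro/+; +/+ it measured 68.9, 77.9 and 88.2 FPKM and 56.0, 55.6 and 82.9 FPKM, and in Pro/Pro;Cas9/+ 91.4, 187 and 28.3 FPKM and 20.7, 182 and 11.2 FPKM. Ptx3, a soluble pattern recognition protein, differed by -3.21, and its Pro/+; +/+ values were 357, 295 and 378.9 FPKM and 440, 340 and 367 FPKM. Cck, the peptide cholecystokinin, differed by 3.06 and measured 40.8, 56.2 and 65.2 FPKM and 36.1, 29.1 and 14.6 FPKM without Cas9. Neither Ptx3 nor Cck was ordered alike in the 2 Pro/+; +/+ mice across all 3 treatments. Of 17 cholesterol synthesis genes, 9 lay above 0 and 8 below in this comparison (58.7% of all genes lay above). Their median was 0.02 with 0 past the test, so by its median this list differed little between the genotypes in the gap between the guides. No gene was called without either gLmna-1 library or without the gLmna-2 library of mouse 2, and 58, 48 and 47 were called without the gLmna-2 library of mouse 1 and the gMock libraries of mouse 1 and mouse 2. A fit of these genotypes only called 2.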

How the data were processed

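RNA of 18 libraries had been quantified by the authors as FPKM with HOMER after FastQC 0.11.2 and alignment to mm10 with STAR 2.4.0k, per the submitters' processing notes. Strand was not given in the sources used here, so antisense or overlapping genes cannot be separated. The deposited table lists transcript parts with their lengths in bases per the file headers, not genes as the design had assumed: 404759 parts of 36795 transcripts. Of 24 library columns, 6 matching no labelled sample were not used. Parts were combined by length, and each of 24445 symbols was represented by its transcript of highest mean level (36469 transcripts named from RefSeq, 199 from GENCODE metadata, 127 unnamed). The smallest steps between deposited FPKM values gave the depth, 22424400 to 42622050 reads, with 100% of values whole within 0.05 reads. Each step may stand for 1 read or for a read pair.

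The 12599 genes that reached 1 FPKM in 2 or more libraries were tested on log2(FPKM + 1), which understates changes of low genes. One limma model (version 3.58.1, under R 4.3.3, with lmFit and a trended eBayes) took in all 18 libraries, with a fixed term for each mouse, 6 residual degrees of freedom and Benjamini-Hochberg adjustment over all genes at 0.05. Figures were drawn with matplotlib 3.10.9, and tables made with pandas 2.3.3 and numpy 2.4.6 under Python 3.11.15. The fit was tested on simulated data. The labels name the same mouse across treatments, and deviations from group means correlated at 0.57, 0.73 and 0.47 within Pro/+; +/+ mice. The same correlations were 0.13, 0.78 and -0.02 in Pro/Pro;Cas9/+ and 0.18, 0.59 and 0.36 in +/+;Cas9/+. P-values rest on 2 mice per genotype.

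The comparisons, gene lists and members were chosen with earlier results of these data known. Named genes are Lmna, the 10 with the smallest p of each Pro/+; +/+ comparison (a mean of at least 2 FPKM, the same direction in both mice, no gene models or sex-linked markers), up to 3 members per list by p, up to 8 genes past the test between genotypes by size, and up to 12 genes past the test with Cas9. Acta2, Cnn1, Hmgcs1, Srebf2, Lyz2, Isg15 and Bst2 in Pro/+; +/+, Cdkn1a, Mdm2, Mki67, C1qa and the immediate-early genes were named outside this rule, after their values were seen. Alternatives were limma voom on recovered reads, other filters, pseudocount, normalization, transcript choice and block, and each Pro/+; +/+ library left out. Cas9 and mCherry RNA were not analysed here, and some genes that the rule names are not reported here.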

Additional observations from a re-analysis of the deposited data

Results flagged for a closer look

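These genes had a guide difference that differed between genotypes in a test of the difference itself (limma, adjusted p under 0.05), so their response in Pro/+; +/+ differed from that of a Cas9 genotype. For guides against gMock, +/+;Cas9/+ minus Pro/+; +/+, the log2 differences of the 8 largest were -3.75 (Isg15), -3.06 (Oasl2), -3.05 (Ifit3b), -3.00 (Ifi44), -2.93 (Cxcl10), -2.48 (Iigp1), -2.45 (Rtp4) and -2.35 (Bst2). All 8 are induced by interferon. In Pro/+; +/+ Cxcl10 measured 0.697, 1.40 and 1.01 FPKM (gMock, gLmna-1, gLmna-2) in mouse 1 and 1.66, 1.36 and 3.43 FPKM in mouse 2, and Rtp4 measured 2.43, 2.23 and 3.29 FPKM and 3.98, 5.33 and 7.30 FPKM.

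For gLmna-2 minus gLmna-1, Pro/Pro;Cas9/+ minus Pro/+; +/+, the differences were -3.66 (Mest), 3.63 (Crct1), -3.21 (Ptx3), 3.06 (Cck), 3.01 (S100a7a), -2.88 (Steap4), 2.74 (Krt19) and -2.69 (Npr3). In Pro/+; +/+ Krt19, a keratin of simple epithelia, measured 5.16, 5.88 and 3.55 FPKM in mouse 1 and 6.48, 6.47 and 3.30 FPKM in mouse 2. There gLmna-2 was the lowest of its mouse, whereas in Pro/Pro;Cas9/+ gLmna-2 was the highest, at 14.2 and 5.84 FPKM. No call of either set remained under every setting, as given for the counts of genes below.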

How the results depend on the processing

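The 4 comparisons within Pro/+; +/+ and the Pro/Pro;Cas9/+ difference gave 0 genes in every setting run, with these exceptions: without a filter on low values limma called 1 gene for gLmna-1 (Snord93), 1 for gLmna-2 (Mir6911) and 3 between the guides. The 37 genes of the +/+;Cas9/+ difference became 0 with at least 5 FPKM, 66 in the compared genotypes only, 1 with limma voom, 22 under median centring, 6 with no filter, 0 with a pseudocount of 0.1 FPKM, 7 under quantile normalization, and 0 to 0 with one library left out. The 300 of the guide difference against Pro/Pro;Cas9/+ became 2 in the compared genotypes only, 468 with voom, 186 under median centring and 50 with no filter, and 0 to 58 with one library left out. With no replicate block by mouse, these counts were 10 and 1, the 10 genes higher in Pro/Pro;Cas9/+ alone became 0, and the comparisons within Pro/+; +/+ stayed at 0. Causes were not tested, except that leaving out a library lowers the residual degrees of freedom.

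Lmna for both guides was 0.0133 under median centring. With one library left out, values ran from -0.121 to 0.0652 for Lmna (both guides), -0.0414 to 0.332 for Lmna (gLmna-1), -0.0453 to 0.498 for Frzb, -0.0126 to 0.151 for Sfrp1 and -0.0141 to 0.609 for Oasl2. Set against the median of all Lmna parts, the differences for gLmna-2 in mouse 1 were 3.81% (exon 12), 1.66% (exon 11) and 7.595% (lamin C end). List medians moved in 92 of 864 recomputations, and in 115 of 576 with a library left out. The medians of the matrix, contractile, cholesterol (gLmna-2) and macrophage lists kept their sign under each scaling. With 2 mice, and gMock the deepest library of each, small differences and genes of few reads are not resolved.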

Other observations

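Of 11 cartilage and bone markers, 8 were tested in these tail-tip cultures, 4 of them above 0 for both guides, with a median of 0.01. Chad, Bglap and Sp7 stayed at or below 0.423 FPKM. Col2a1, the collagen of cartilage, measured 140 FPKM with gMock, 136 with gLmna-1 and 103 with gLmna-2 in mouse 1, and 72.4, 36.6 and 24.0 FPKM in mouse 2. Alpl, the phosphatase of mineralizing cells, measured 24.4, 18.3 and 14.6 FPKM and 21.0, 14.1 and 8.12 FPKM. Both were lowest with gLmna-2 in each mouse, and the 4 guide values of Alpl lay below both gMock values, with a log2 difference of -0.73 (SE 0.26, limma adjusted p = 0.996). Spp1, osteopontin, which macrophages also make, measured 4257, 4638 and 5378 FPKM and 1639, 2021 and 2305 FPKM, so it ran the other way. Acan, the cartilage proteoglycan, stayed at or below 0.163 FPKM.

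Posterior Hox genes, which hold the positional identity of tail cells, were measured in 11 of 16 members, while the 5 Hoxd members stayed at or below 0.677 FPKM. Hoxb13 measured 74.7, 80.9 and 89.6 FPKM in mouse 1 and 115, 122 and 135 FPKM in mouse 2, and Hoxc13 measured 16.2, 10.7 and 14.6 FPKM and 15.2, 12.4 and 9.88 FPKM. The 4 guide values of Hoxc13 lay below both gMock values. The list had 1 of 11 above 0, which was Hoxb13, with a median of -0.10. The mice differed in sex: Xist measured 21.6 to 23.1 FPKM in mouse 1 and at most 0.0189 FPKM in mouse 2, and Ddx3y, on the Y chromosome, at most 0.00773 FPKM in mouse 1 and 18.4 to 19.4 FPKM in mouse 2.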
